A study of Homo sapiens with 6 samples.

Results

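The 54 genes described here act at the G1/S transition and in DNA replication. They were chosen by name, from the cyclins that open G1/S to the proteins that copy DNA and repackage it, and each needed a probe set whose only gene symbol was that gene's. All 54 had one, and they are 54 of the 18417 genes measured. RNA was taken from H460 cells, a human non-small cell lung cancer line, after 16 h under normoxia or under hypoxia (1% pO2) in medium with reduced serum, and was hybridised to Affymetrix Human Gene 1.0 ST arrays. The study asked how specifically BAY 87-2243, a small-molecule inhibitor of HIF-1 activity, acts on transcription. It reports that the compound blocks mitochondrial complex I and that HIF proteins are reduced under hypoxia as a result. There were 6 arrays, with 1 array per condition. Cells under normoxia received 0.1% DMSO or 100 nM BAY 87-2243, and cells under hypoxia received 0.1% DMSO, 100 nM BAY 87-2243 or a lower dose. The labels of both lower-dose arrays contradict each other. One is titled 10 nM and has the source name 1 nM, and the other is titled 1 nM and has the source name 10 nM, so they are called here by their titles and no order of dose is read from them. With 1 array per condition no difference has a replicate check, and no p-value or standard deviation can be given.

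Cyclin D with CDK4 or CDK6, and then cyclin E with CDK2, phosphorylate the retinoblastoma (pocket) proteins, which release the E2F transcription factors, and E2F in turn drives much of the gene set needed for S phase. The origin recognition complex, CDC6 and CDT1 load the MCM helicase onto origins in G1. The CDC7-DBF4 kinase, CDC45 and the GINS complex then switch the helicase on, and polymerases, the PCNA clamp and its loader RFC copy the DNA. Low oxygen is known to slow entry into S phase in many cell types. In RNA from a whole culture, fewer cells in S phase and less of these mRNAs per cell cannot be told apart.

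A value is the linear intensity of the brightest probe set of a gene, and a difference is the log2 ratio between 2 arrays. Intensities of different genes are not compared, because probe sets differ in response. A gene is called higher or lower when its values differ at least 1.5-fold (0.585 on the log2 scale), a rule of size and not a test. That size was set because proliferation genes had moved by less than 2-fold in earlier results of these data. The most similar pair of arrays, normoxia 100 nM and hypoxia 100 nM, gives a rough scale, since 95% of brighter genes lay within 1.29-fold between them and 95% of dimmer genes within 1.43-fold. Brighter means a mean log2 intensity over the 6 arrays above the median of all probe sets, which held for 11307 genes and for 52 of the 54 members. The exceptions, CCND2 and DBF4, were dim, below the array median on every array. Array medians ran from 127.6 to 139.8. Of the 5 epithelial markers, KRT8, KRT18 and KRT19 were above the array median on every array, and EPCAM and CDH1, defining markers of epithelium, were not. The summed intensity of 5 fibroblast markers ran from 920 in normoxia DMSO to 1113 in hypoxia DMSO, that of 4 blood markers from 383 to 459, and that of 4 endothelial markers from 188 in hypoxia 100 nM to 239 in hypoxia DMSO. COL1A1, COL3A1, LUM and CD14 were above the array median on every array, no endothelial marker was, and the part of these marker sums in the differences below was not tested.

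In hypoxia with DMSO the replication genes were mostly lower than in normoxia with DMSO. Of the 54 members, 28 were lower and 2 were higher, against 11.0% of all genes lower and 8.90% higher. Among brighter genes, to which most members belong, 15.5% were lower and 7.6% higher. The median difference of the members was -0.60, that of all genes 0.08 and that of the brighter genes -0.05. Below 0 were 48 of 54 members, from 48 to 49 with other scalings, where 42.6% of all genes and 54.5% of brighter genes were below 0. At 2-fold, 11 members were lower and 1 was higher, where 3.67% of all genes were lower and 1.67% higher. Of brighter genes 5.06% were lower and 2.11% higher at 2-fold. The 11 lower members were CCND1, CCNE2, CDC25A, RBL1, CDC6, ORC6, CDC7, DBF4, MCM10, GINS3 and POLE2, and the single member higher at 2-fold was CDKN1B. For 36 of 54 members the lowest of the 6 arrays was hypoxia DMSO (22.0% of all genes), and for 37 of 54 the highest was normoxia DMSO (22.8% of all genes). In quantile-normalised values 19 members were lower, and CDC45, GINS4, PRIM1, RFC2, RFC4, FEN1, RPA2, CHAF1A and SLBP fell inside 1.5-fold. With the array titled 10 nM standing in for hypoxia DMSO, or with normoxia 100 nM standing in for normoxia DMSO, 17 members were lower.

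**Figure D1:**
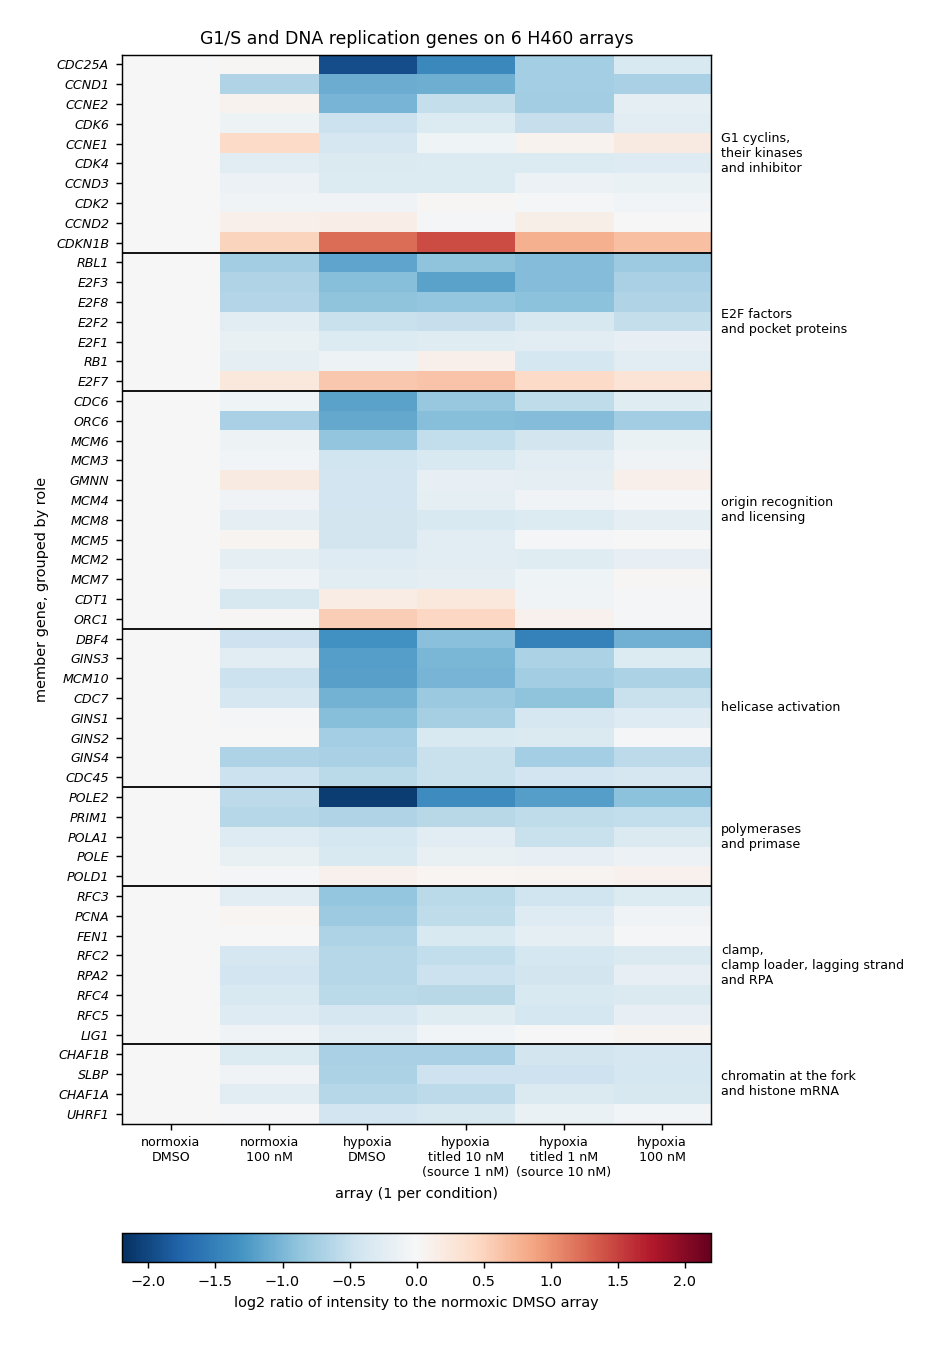
Each row is 1 of the 54 members, grouped by role, each column 1 array, and the colour the log2 ratio of intensity to the normoxia DMSO array. The hypoxia DMSO column is the bluest, with 28 members at least 1.5-fold lower, and the hypoxia 100 nM column is paler, with 8.

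Many promoters of these genes carry the letters of an E2F site, the sequence through which E2F and the pocket proteins act. RefSeq promoter windows (GRCh38.p14, 250 bases before to 50 after a transcript start) were at hand for 45 of the 54 members. They were missing for CCND1, CCND2, CCNE2, CDK2, E2F8, MCM4, MCM5, GINS4 and RPA2. An E2F match was TTGGCGC on either strand. The variant TTCCCGC also counted. A match to TTCGCGC counted too, and so did the form TTGCCGC on both strands. Any of these letters occurred in 32 of the 45 members (71.1%) and in 21.0% of the 14239 measured genes with a window. Counted by window, they were in 35 of the 59 windows of members (59.3%) and in 13.0% of all 35116 windows. Windows are shown here for a few members picked by name across the patterns of response. They run from 100 bases before to 10 after the start, so that the last 10 bases are the beginning of the first exon. Capitals mark E2F letters on either strand, and neighbouring matches run together (TTGGCGC and its reverse GCGCCAA share bases in CDC25A). CDC25A and POLE2 had the largest differences in hypoxia, and GINS3, MCM6 and PCNA were, like them, higher with the compound in hypoxia. RBL1 was lower with the compound in normoxia. CDKN1B was higher in hypoxia, ORC1 just missed 1.5-fold, and POLD1 hardly differed between arrays.
CDC25A: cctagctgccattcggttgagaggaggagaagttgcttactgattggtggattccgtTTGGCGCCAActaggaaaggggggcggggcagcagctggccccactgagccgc
POLE2: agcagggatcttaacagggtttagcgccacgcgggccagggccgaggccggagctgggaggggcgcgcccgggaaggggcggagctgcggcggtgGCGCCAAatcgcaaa
GINS3: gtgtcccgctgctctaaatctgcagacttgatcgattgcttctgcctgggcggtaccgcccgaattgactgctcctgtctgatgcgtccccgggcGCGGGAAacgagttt
MCM6: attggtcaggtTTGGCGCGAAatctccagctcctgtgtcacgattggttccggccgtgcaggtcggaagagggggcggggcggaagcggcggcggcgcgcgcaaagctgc
PCNA: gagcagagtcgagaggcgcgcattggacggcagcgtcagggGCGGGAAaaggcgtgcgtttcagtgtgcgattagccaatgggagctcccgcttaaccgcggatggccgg
RBL1: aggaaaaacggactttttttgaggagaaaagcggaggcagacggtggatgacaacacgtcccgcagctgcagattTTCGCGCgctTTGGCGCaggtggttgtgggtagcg
ORC1: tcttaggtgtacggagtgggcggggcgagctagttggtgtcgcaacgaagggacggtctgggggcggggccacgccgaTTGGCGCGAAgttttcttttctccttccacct
CDKN1B: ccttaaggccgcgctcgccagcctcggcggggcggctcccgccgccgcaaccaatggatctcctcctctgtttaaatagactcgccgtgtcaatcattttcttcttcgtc
POLD1: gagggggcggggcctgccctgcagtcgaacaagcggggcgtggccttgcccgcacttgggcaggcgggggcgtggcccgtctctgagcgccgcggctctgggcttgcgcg

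Those windows lie at chr3:48188408-48188517 (- strand) for CDC25A, chr14:49688205-49688314 (- strand) for POLE2, chr16:58392371-58392480 (+ strand) for GINS3, chr2:135876434-135876543 (- strand) for MCM6, chr20:5126613-5126722 (- strand) for PCNA, chr20:37095988-37096097 (- strand) for RBL1, chr1:52404414-52404523 (- strand) for ORC1, chr12:12717268-12717377 (+ strand) for CDKN1B and chr19:50384223-50384332 (+ strand) for POLD1. The first marked base lay 43 bases before the start in CDC25A, 5 bases before it in POLE2 and GINS3, 89 in MCM6, 59 in PCNA and 22 in ORC1, and both matches of RBL1 began 25 and 15 bases before its start. Neither CDKN1B nor POLD1 held the letters in any window. Of members not shown, FEN1, higher with the compound in hypoxia, lacked them, and E2F7, higher in hypoxia with DMSO, held them. Presence of the letters did not separate the members by response, since they were in 17 of the 23 lower members with a window (73.9%) and in 14 of the 20 members within 1.5-fold (70.0%). They were in 8 of the 9 members with a window that were higher with 100 nM in hypoxia. A match is a description of letters and not a site shown to be bound.

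Other short letters were distributed differently. The cell cycle homology region, TTTGAA, which is typical of genes expressed in G2 and mitosis, was in 2 of the 45 members (4.44%), DBF4 and E2F3. It was in 15.7% of measured genes and in 23 of 31 genes (74.2%) of a list of G2/M genes. By window, it was in 3.39% of the windows of members and 15.2% of all windows. That G2/M list held the E2F letters in 8 of 31 genes (25.8%). CCAAT, the NF-Y element, which overlaps an E2F match where ATTGG runs into TTGGCGC as in ORC1, was in 25 members (55.6%). It was in 42.2% of measured genes and 80.6% of the G2/M list, and by window in 52.5% of the windows of members and 34.6% of all windows. The core letters of the HIF element, ACGTG, which overlap their own reverse in CACGTG, were in 16 members (35.6%). They were in 28.9% of measured genes and 13 of 31 genes of the G2/M list (41.9%). By window, they were in 28.8% of the windows of members and 21.4% of all windows. Of members with a window, 8 of 23 that were lower in hypoxia with DMSO held them (34.8%), and 8 of 20 within 1.5-fold (40.0%). Neither CDKN1B nor E2F7, the 2 members that were higher in hypoxia, held them. They were in 1 of 9 members higher with 100 nM in hypoxia and in 3 of 4 lower with it in normoxia. Sets this small give no ground to read a pattern.

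**Figure D2:**
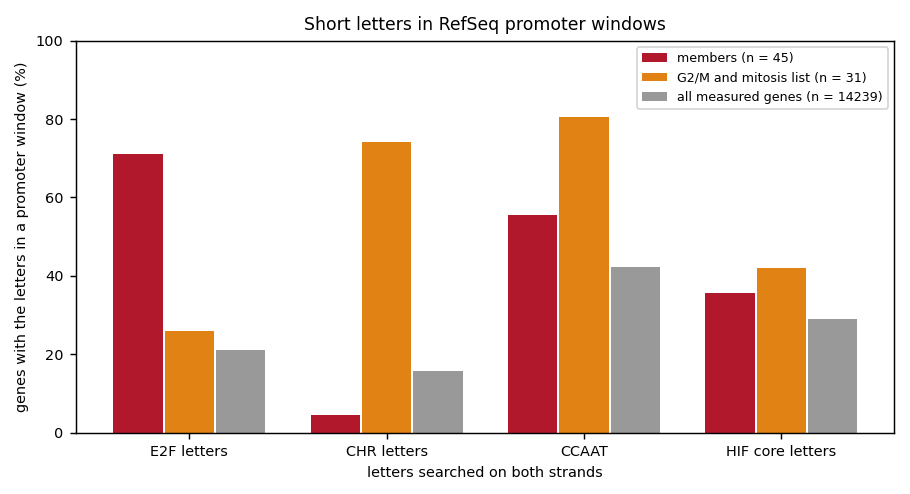
Bars give the percentage of genes with each set of letters in a promoter window, for 45 members, 31 genes of the G2/M list and 14239 measured genes. E2F letters were in 71.1% of members and 25.8% of the G2/M list, and TTTGAA (CHR letters) in 4.44% and 74.2%.

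Among the 10 G1 cyclins, kinases and their regulators, 3 were lower in hypoxia with DMSO and 1 was higher, with a median difference of -0.35. CDC25A, the phosphatase that removes the inhibitory phosphate from CDK2, had an intensity of 624 in normoxia DMSO, 638 in normoxia 100 nM, 161 in hypoxia DMSO, 233 on the array titled 10 nM, 369.5 on the array titled 1 nM and 497.5 in hypoxia 100 nM. It was 3.89-fold lower in hypoxia DMSO, and every other array lay above that one. CCNE2, a cyclin E, had 685 in normoxia DMSO, 722 in normoxia 100 nM, 339 in hypoxia DMSO, 478 on the array titled 10 nM, 402 on the array titled 1 nM and 599 in hypoxia 100 nM, a difference of -1.01 in hypoxia with DMSO. CCND1, the cyclin D that links growth signals to CDK4, had 1369.5 in normoxia DMSO, 865 in normoxia 100 nM, 643 in hypoxia DMSO, 654 on the array titled 10 nM, 819.6 on the array titled 1 nM and 838 in hypoxia 100 nM. All 5 other arrays, the normoxic array with the compound included, were below normoxia DMSO for CCND1. CDKN1B encodes p27, an inhibitor of cyclin-CDK complexes, and was the member that rose most. Its intensities were 927 in normoxia DMSO, 1308 in normoxia 100 nM, 2162 in hypoxia DMSO, 2514 on the array titled 10 nM, 1598 on the array titled 1 nM and 1471 in hypoxia 100 nM, 2.33-fold higher in hypoxia DMSO, and normoxia DMSO was its lowest array.

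CCNE1, the other cyclin E, stayed within 1.5-fold in hypoxia with DMSO at -0.38. Its values were 301, 400.3, 232, 281, 316 and 344 in the order normoxia DMSO, normoxia 100 nM, hypoxia DMSO, titled 10 nM, titled 1 nM and hypoxia 100 nM, and that order is kept below. The kinase partners differed less. CDK6 was at -0.47, CDK4 at -0.32 and CDK2 at -0.08 (0.02 with quantile normalisation) in hypoxia with DMSO, and cyclin D3 (CCND3) at -0.30. CCND2 was dim, between 63.0 and 71.3 on all arrays, with a difference of 0.14, or -0.01 with quantile normalisation.

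Of the 7 E2F factors and pocket proteins, 3 were lower and 1 was higher, with a median of -0.49. RBL1, which encodes the pocket protein p107, had 1064.5 in normoxia DMSO, 627 in normoxia 100 nM, 479 in hypoxia DMSO, 577 on the array titled 10 nM, 548 on the array titled 1 nM and 615 in hypoxia 100 nM. It was highest in normoxia DMSO, and the other 5 arrays lay between 479 and 627. E2F3, an activating E2F, read 477, 299.7, 249.7, 211, 247 and 292 in the order given, and E2F8, a repressing E2F, 549, 353, 297, 306, 295 and 346. Both shared with RBL1 a low value in normoxia with the compound. E2F7, the other atypical repressor, went the opposite way with 1067, 1247, 1614.5, 1654, 1432 and 1320.0, and its 1.51-fold higher value in hypoxia DMSO fell inside 1.5-fold when arrays were centred on their medians or when 32 was added to intensities. E2F1 was at -0.29, E2F2 at -0.49 and RB1, the retinoblastoma gene itself, at -0.11, each within 1.5-fold.

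The 12 genes of origin recognition and licensing held 3 lower members and none that was higher, with a median of -0.41. CDC6, which helps load the MCM helicase, had 1817 in normoxia DMSO, 1699.7 in normoxia 100 nM, 807 in hypoxia DMSO, 1022 on the array titled 10 nM, 1237 on the array titled 1 nM and 1510.5 in hypoxia 100 nM. Hypoxia DMSO kept 44.4% of the normoxia DMSO value of CDC6, and the 3 hypoxic arrays with compound lay between them. ORC6, a subunit of the origin recognition complex, read 606, 369.6, 279, 316, 313 and 357, with normoxia DMSO standing above the 5 others. MCM6 was the only MCM2 to MCM8 gene that was lower, reading 1939, 1798, 1067, 1338.5, 1469 and 1751. The other helicase genes MCM2, MCM3, MCM4, MCM5 and MCM7, and MCM8, which acts mainly in repair, were all below 0 but within 1.5-fold, from -0.44 for MCM3 to -0.23 for MCM7. 

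Not every licensing gene was below 0. ORC1, the largest origin recognition subunit, read 837, 850.4, 1214, 1150.5, 895.5 and 819.7, so that hypoxia DMSO was its highest array at 0.54, just inside 1.5-fold, and just outside it in quantile-normalised values. CDT1, the loader that works with CDC6, was at 0.17, and GMNN, its inhibitor geminin, at -0.43.

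All 8 genes of helicase activation were lower in hypoxia with DMSO, and their median of -0.99 was the lowest of the 7 role groups. The GINS subunit gene GINS3 had 934 in normoxia DMSO, 782 in normoxia 100 nM, 404 in hypoxia DMSO, 463 on the array titled 10 nM, 576 on the array titled 1 nM and 761 in hypoxia 100 nM. Its partner GINS1 read 1667.5, 1610.2, 870.5, 1003, 1298 and 1376.5 in the order given. GINS2 read 1657.5, 1657, 987, 1309.8, 1333 and 1613. For these 3 GINS subunits hypoxia 100 nM was the highest of the 4 hypoxic arrays. GINS4, the remaining subunit, read 686.5, 429.6, 419.9, 488, 408 and 463, with all 5 other arrays below normoxia DMSO. MCM10, which joins the helicase to polymerase alpha, read 1108, 798, 483, 543, 649 and 683, and CDC45, the helicase cofactor, 1816, 1306.5, 1203, 1287, 1355 and 1404. The kinase CDC7 read 462, 356, 224, 263, 249.6 and 330.0 and was 2.06-fold lower in hypoxia DMSO. Its activator DBF4 was dim at 70.7, 51.8, 28.0, 37.2, 25.2 and 33.9, so its 2.53-fold lower value rests on weak signal.

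Among the 5 polymerase and primase genes, 2 were lower, with a median of -0.38. POLE2, a subunit of the leading-strand polymerase epsilon, had the largest difference of all members in hypoxia with DMSO. Its intensities were 1305 in normoxia DMSO, 881 in normoxia 100 nM, 306 in hypoxia DMSO, 502 on the array titled 10 nM, 562 on the array titled 1 nM and 698 in hypoxia 100 nM, a 4.27-fold lower value in hypoxia DMSO, and the next lowest array stood at 502.0. PRIM1, the catalytic primase subunit, read 2347, 1517, 1490.0, 1539, 1602 and 1616 and again separated normoxia DMSO from the other 5 arrays. POLA1, the catalytic subunit of polymerase alpha, read 1229, 1011.5, 943, 1034, 873 and 984 and was within 1.5-fold, as was POLE, the catalytic subunit of polymerase epsilon, at -0.34. POLD1, the catalytic subunit of polymerase delta, read 798, 788, 851, 827, 835 and 854 and differed by 0.09, or by -0.02 with centred arrays.

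Of the 8 genes for the clamp, the clamp loader, the lagging strand and the single-strand binder RPA, 6 were lower and all 8 were below 0, with a median of -0.63. PCNA, the sliding clamp, had 2448 in normoxia DMSO, 2522 in normoxia 100 nM, 1404 in hypoxia DMSO, 1655.5 on the array titled 10 nM, 2014 on the array titled 1 nM and 2306.5 in hypoxia 100 nM. Its normoxic arrays were nearly equal and hypoxia DMSO was the lowest array. The flap endonuclease FEN1, which trims Okazaki fragments, read 1116, 1128, 694, 882, 973 and 1083 in the same pattern. The loader subunits RFC2, RFC3 and RFC4 were lower at -0.63, -0.85 and -0.60, and RFC5 was at -0.36. RFC3 read 3306, 2822, 1837, 2194, 2440.2 and 2685. RFC2 read 3487, 2696, 2250.5, 2406, 2664 and 2801, and RFC4 read 2312, 1832, 1524, 1520.2, 1841 and 1844.5. For all of these loader genes normoxia DMSO was the highest array. RPA2 read 330.5, 248, 215, 237, 249.9 and 290.1, a difference of -0.62, while the ligase LIG1 was at -0.24.

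The 4 genes that restore chromatin behind the fork or supply histones had a median of -0.66, and 3 were lower. The chromatin assembly factor subunits CHAF1A and CHAF1B were at -0.62 and -0.71. CHAF1A read 785.5, 662, 511, 528, 627 and 614. SLBP, which binds the stem-loop of histone mRNAs, read 1767, 1673, 1087, 1288, 1288 and 1345, and CHAF1B read 1746, 1425, 1067, 1064, 1318 and 1354. UHRF1, which guides maintenance methylation of new DNA, was within 1.5-fold at -0.42. It was the only member with 2 probe sets, and the second was dim, between 68.7 and 94.6.

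**Figure D3:**
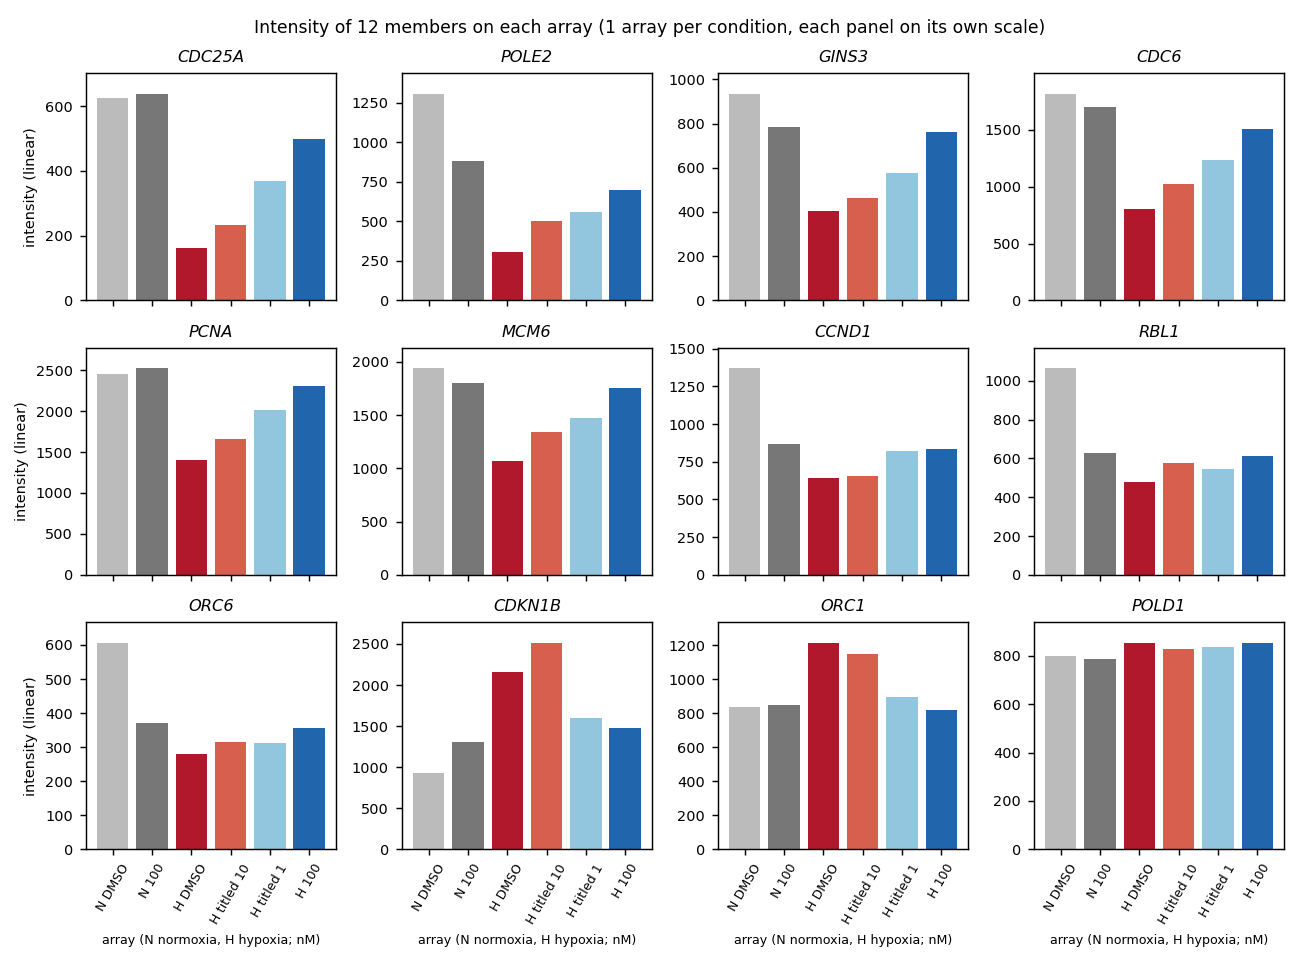
Bars show the intensity (linear axis from 0, a scale per panel) of 12 members on each array, 1 array per condition. CDC25A, POLE2, GINS3, CDC6, PCNA and MCM6 were lowest in hypoxia DMSO, CCND1, RBL1 and ORC6 were highest in normoxia DMSO, and POLD1 stayed between 788 and 854.

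With 100 nM BAY 87-2243 in hypoxia, many of these genes stood above their value in hypoxia with DMSO. Of the 54 members 10 were higher and 0 lower. Of all genes 4.97% were higher and 5.70% lower, and of brighter genes 6.86% and 4.2%. The median of the members was 0.29 against -0.04 for all genes and 0.06 for the brighter genes. Those 10 were CCNE2, CDC6, CDC25A, MCM6, GINS1, GINS2, GINS3, PCNA, POLE2 and FEN1. Above 0 were 47 of 54 members, 45.6% of all genes and 58.1% of brighter genes. Only CDC25A at 1.63 and POLE2 at 1.19 were higher at 2-fold, and no member was lower at 2-fold (0.766% of all genes higher and 1.01% lower). This comparison shares the hypoxia DMSO array with the preceding one, so a low reading on that array enters both with opposite sign. The split depended on scaling, with 8 higher and 2 lower members in quantile-normalised values and 15 higher and 0 lower in centred values.

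The medians by role ran from 0.12 to 0.53, a spread that was not tested. Helicase activation had the highest median at 0.53, followed by the clamp and loader group at 0.38 and licensing at 0.36, while the E2F and pocket group and the polymerases were at 0.12 each. CDC25A was 3.10-fold higher and POLE2 2.28-fold higher with the compound. GINS3 at 0.91 and CDC6 at 0.90 came next, then CCNE2 at 0.82, PCNA at 0.72, MCM6 at 0.71, GINS2 at 0.71, GINS1 at 0.66 and FEN1 at 0.64. CCNE1, just inside 1.5-fold, was at 0.57, CDC7 at 0.56 and GMNN and RFC3 at 0.55 each. The 2 largest differences below 0 were those of ORC1 at -0.57 and CDKN1B at -0.56, both inside 1.5-fold and outside it in quantile-normalised values. POLD1 at 0.005 and CDK2 at 0.02 barely differed.

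**Figure D4:**
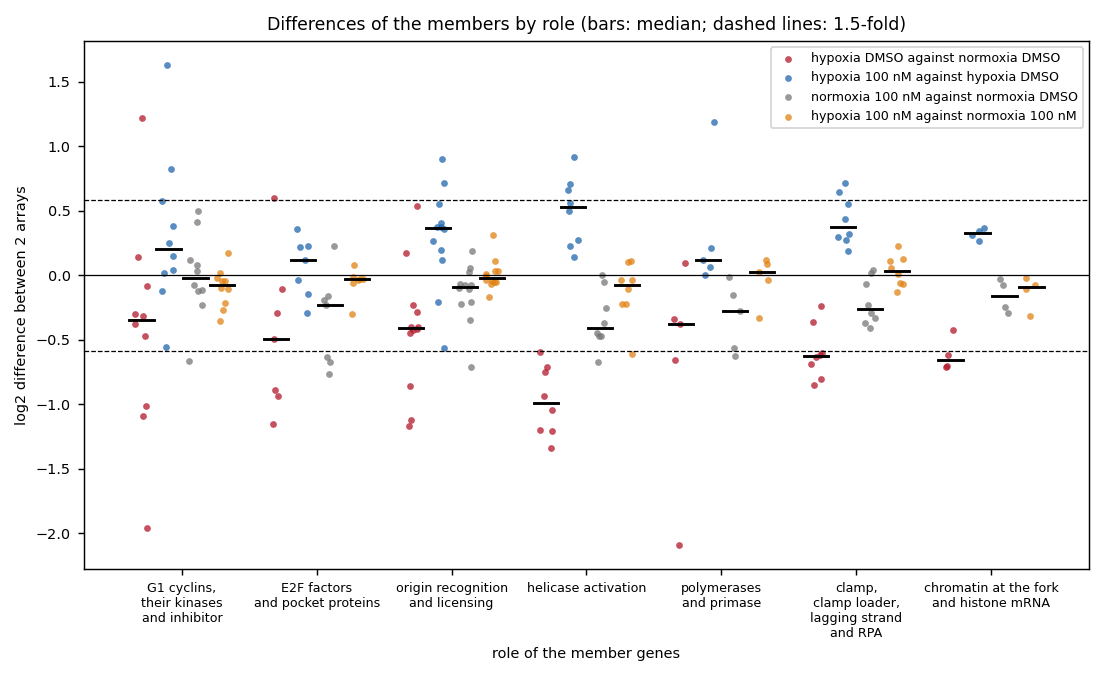
Each point is the log2 difference of 1 member between 2 arrays, by role, with the median as a bar and dashed lines at 1.5-fold. Helicase activation had a median of -0.99 in hypoxia DMSO against normoxia DMSO and 0.53 in hypoxia 100 nM against hypoxia DMSO.

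With 100 nM in normoxia, 7 members were lower and 0 higher. Of all genes 4.55% were lower and 1.90% higher, and of brighter genes 5.7% and 1.74%. The median of the members was -0.18 against 0.02 for all genes and -0.03 for the brighter genes. The 7 lower members were CCND1 at -0.66, E2F3 at -0.67, E2F8 at -0.64, RBL1 at -0.76, ORC6 at -0.71, GINS4 at -0.68 and PRIM1 at -0.63. In quantile-normalised values CCND1, E2F3, E2F8 and GINS4 fell inside 1.5-fold and 3 remained. POLE2 at -0.57 was just inside the threshold, and CDKN1B at 0.50 and CCNE1 at 0.41 had the highest values. This comparison shares the normoxia DMSO array with that of hypoxia against normoxia. For all 7 lower members normoxia DMSO was the highest array. These 7 were chosen by their distance below that array, so this is partly a result of the choice. The part of a single high reading on normoxia DMSO was not tested.

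The 10 members higher with the compound in hypoxia and the 7 lower with it in normoxia had none in common, which is 0 of 10 and 0 of 7. Over all genes, 67 of the 915 higher with the compound in hypoxia were among the 838 lower with it in normoxia. Lists as short as those of the members give no ground to call their lack of overlap particular. These comparisons share no array. Across those 10 members, the compound difference in normoxia had a median of -0.03 and ran from -0.57 for POLE2 to 0.08 for CCNE2. Across those 7 members, the compound difference in hypoxia had a median of 0.23 and ran from 0.12 for PRIM1 to 0.38 for CCND1. Thus PCNA read 2448 and 2522 in normoxia without and with the compound but 1404 and 2307 in hypoxia, while RBL1 read 1065 and 627 in normoxia but 479 and 615 in hypoxia.

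**Figure D5:**
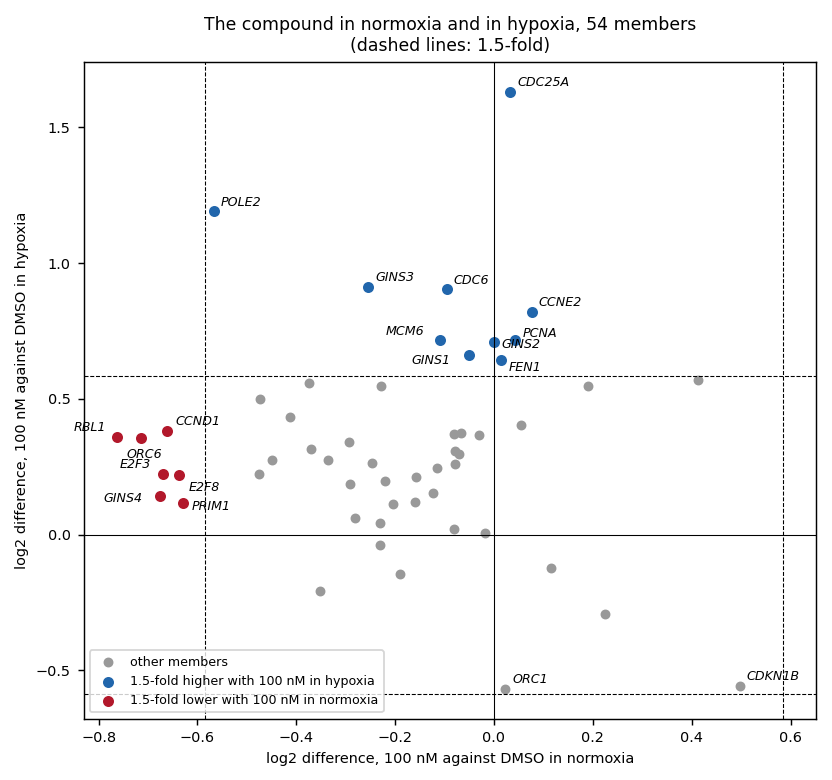
Each point is 1 of the 54 members, with the log2 difference of 100 nM against DMSO in normoxia on the horizontal axis and in hypoxia on the vertical axis, and dashed lines at 1.5-fold. The 10 blue members were higher with the compound in hypoxia, the 7 red members lower with it in normoxia, and none was both.

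When both oxygen conditions carried 100 nM of the compound, the members hardly differed. Only DBF4 was lower in hypoxia 100 nM than in normoxia 100 nM and 0 were higher, where 0.749% of all genes were lower and 0.972% higher, and the median was -0.04. DBF4 is dim, and it fell inside 1.5-fold with 32 added to intensities. Of the 28 members lower in hypoxia with DMSO, DBF4 was the single one also lower here. The overlap over all genes was not computed. Only 138 of 18417 genes were lower between these 2 most similar arrays, which gives no ground to call the small overlap particular to the members. Between these arrays 95% of members lay within 1.25-fold and 95% of brighter genes within 1.29-fold. CDC25A at -0.36, POLE2 at -0.34 and CCNE2 at -0.27 kept negative differences, and CDKN1B was at 0.17. Of 27 HIF target genes, for comparison, 14 were still higher, with a median of 0.59. Set against normoxia DMSO, hypoxia 100 nM had 8 members lower and 1 higher (4.98% of all genes lower and 2.74% higher), with a median of -0.22 against 0.01 for all genes.

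The 2 lower-dose arrays lay between hypoxia DMSO and hypoxia 100 nM for all 10 members higher with 100 nM in hypoxia. These 10 were chosen by the difference between those 2 end arrays, so lying between them is partly a result of the choice. The share over all genes was not computed. On the array titled 10 nM, 1 member, POLE2 at 0.72, was higher than in hypoxia DMSO. No member was lower there, where 1.06% of all genes were higher and 3.20% lower. Of all genes 50.8% were above 0 and of brighter genes 65.7%, with medians of 0.00 and 0.06. The members had a median of 0.15, and 46 of 54 were above 0. With quantile normalisation that median was 0.07 and 36 of 54 were above 0, and with centred arrays it was 0.24, with 52 of 54 above 0 and 3 higher. On the array titled 1 nM, CDC25A at 1.20, POLE2 at 0.88 and CDC6 at 0.62 were higher and 0 were lower (2.05% higher and 2.54% lower). The members had a median of 0.19 there, with 40 of 54 above 0, where 49.7% of all genes and 50.1% of brighter genes were above 0. Over those 10 members the median was 0.34 on the array titled 10 nM and 0.52 on the array titled 1 nM, against 0.77 at 100 nM. All 3 medians use the hypoxia DMSO array that helped to choose the 10. CDKN1B was at 0.22 on the array titled 10 nM and -0.44 on the array titled 1 nM, and ORC1 at -0.08 and -0.44. The HIF target list had a median of 0.03 on the array titled 10 nM and -0.57 on the array titled 1 nM. Where the array titled 10 nM was compared with normoxia 100 nM, which uses neither DMSO array, 7 members were lower and 1 higher (3.12% of all genes lower and 4.64% higher), with a median of -0.22 against -0.01 for all genes.

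Further genes of the same pathways, none of them members, were counted in the same way. Of 30 other G1/S control genes 28 were measured, and in hypoxia with DMSO 4 were lower and 2 higher, with a median of -0.22. Those shares, 14.3% lower and 7.14% higher, were near those of all genes (11.0% and 8.90%) and of brighter genes (15.5% and 7.6%). E2F6, a repressing E2F, read 627.5, 316, 189, 222.5, 269 and 338.5 in the order given, and E2F5, which works with pocket proteins in resting cells, 651.5, 488, 324, 455, 333 and 405. CDKN1A, which encodes the CDK inhibitor p21, read 418, 1032, 1381.5, 1349, 1187 and 1218. Normoxia DMSO was the lowest array for CDKN1A, and the other 5 exceeded it at least 2-fold. CCNA1 was the second that was higher, at 0.98. With 100 nM in hypoxia, 1 of 28 was higher (3.57%, E2F6 at 0.84) and 0 lower, where 4.97% of all genes were higher and 5.70% lower. LIN37 and LIN54 of the DREAM complex were at -0.53 and -0.48, and FBXO5, an inhibitor of the anaphase-promoting complex, was at 0.44.

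All 42 other replication fork and origin genes were measured, and 10 were lower and 0 higher in hypoxia with DMSO, with a median of -0.37. The 10 are 23.8% of the list, where 11.0% of all genes and 15.5% of brighter genes were lower. DSCC1, a subunit of an alternative clamp loader, read 292, 141, 53.6, 88.1, 81.5 and 123, and TIPIN, of the fork protection complex, 1230.0, 788.5, 322, 486, 513 and 643. The histone chaperone ASF1A read 1928, 1218.5, 598.5, 709.5, 812.5 and 1015 and the remodeller HELLS 438.5, 331, 177, 267, 263 and 322. In each of these 4 genes hypoxia DMSO was the lowest array and normoxia DMSO the highest. These genes were named for having the largest differences of the list between those same arrays, so this is partly a result of the choice. The share over the whole list was not computed. With 100 nM in hypoxia 6 of 42 were higher (14.3%) and 0 lower, with a median of 0.20. Of all genes 4.97% were higher there, and of brighter genes 6.86%. CLSPN, which couples the fork to checkpoint signalling, was at 1.11, TIPIN at 1.00, HELLS at 0.87 and ASF1A at 0.76. The G2/M and mitosis list, by comparison, had 9 of 39 measured genes lower in hypoxia with DMSO (23.1%, median -0.25). With the compound in hypoxia 0 of 39 were higher (median 0.10). The HIF target list had 23 of 27 higher in hypoxia with DMSO (85.2%, median 1.41), where 8.90% of all genes were higher. With the compound in hypoxia 17 of 27 were lower (63.0%, median -1.01), where 5.70% of all genes were lower. The 8 measured reference genes had a median of -0.01 in hypoxia with DMSO.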

How the data were processed

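The authors hybridised total RNA from 6 H460 cultures, 1 array per condition, and deposited 1 linear intensity for each of 33297 probe sets. Their methods name MAS 5.0 and Expressionist software, RMA stands in the submitters' processing notes with no version number, and the genome build is not given in the sources used here. Of the probe sets, 19460 carried a single gene symbol, 1754 carried several and 12083 were unnamed here. The brightest probe set by mean log2 intensity stood for each gene, which gave 18417 genes.

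Differences are log2 ratios of the deposited intensity with nothing added. No test was possible on single arrays, and the number of arrays limits the precision. Members at least 1.5-fold apart in any of the first 3 comparisons, the 3 with the largest hypoxic difference in each role, and those near the threshold were named with all 6 values, as were up to 4 genes of each further pathway list. The members, the lists and the 1.5-fold rule were chosen with earlier results of these data known. Alternatives were quantile normalisation, 32 added to intensities, centred arrays, a restriction to brighter genes, averaging probe sets of the same gene, a 2-fold rule and another array in place of a DMSO array. Scripts ran in Python 3.11.15 with numpy 2.4.6, pandas 2.3.3 and scipy 1.17.1 and were tested on simulated data.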

Additional observations from a re-analysis of the deposited data

Results flagged for a closer look

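For 6 members the difference between 100 nM BAY 87-2243 and DMSO had opposite signs in hypoxia and in normoxia, each beyond the 95% spread of brighter genes between the 2 most similar arrays (0.36 on the log2 scale). The hypoxic difference minus the normoxic one was 1.76 for POLE2, 1.04 for CCND1, 0.97 for MCM10, 0.93 for CDC7 and 0.85 for RPA2. CDKN1B ran the other way at -1.05, above its DMSO value in normoxia and below it in hypoxia. Over all 54 members the median of this quantity was 0.49. This quantity equals the hypoxic difference with 100 nM minus that with DMSO, whose member medians were -0.04 and -0.60. Neither the count of 6 nor this median was computed over all genes, so neither can be called particular to the members. With 1 array per condition the difference between oxygen conditions was not tested.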

How the results depend on the processing

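No median of the members, and no member difference of at least 1.5-fold, changed sign under an alternative. For hypoxia DMSO against normoxia DMSO, the median of -0.60 became -0.48 with quantile normalisation, -0.71 with centred arrays, -0.30 where normoxia 100 nM replaced normoxia DMSO and -0.41 where hypoxia DMSO was replaced by the array titled 10 nM. The 28 lower members became 17 with either replacement and 11 at 2-fold, and the 2 higher members became 1 with centred arrays, with 32 added, with normoxia 100 nM in place of normoxia DMSO, and at 2-fold. For 100 nM against DMSO in hypoxia, the median of 0.29 became 0.18 where the array titled 10 nM replaced hypoxia DMSO and 0.10 where the array titled 1 nM did, the 10 higher members became 2 and 0, and 2 at 2-fold, and the 0 lower members became 2 with quantile normalisation and 1 with the array titled 10 nM. For 100 nM in normoxia, the 7 lower members became 3 with quantile normalisation and 0 at 2-fold. For hypoxia against normoxia with 100 nM, the 1 lower member became 0 among brighter genes, with 32 added and at 2-fold. For the array titled 10 nM, the median of 0.15 became 0.07 with quantile normalisation and 0.24 with centring, the 1 higher member became 3 with centred arrays and 0 at 2-fold, and for the array titled 1 nM the 3 higher became 1. The cause of these shifts was not tested. Centring moved the median of all genes for the array titled 10 nM from 0.00 to 0.10. Of 324 member differences, 48 moved by more than 0.10 on the log2 scale with quantile normalisation, 54 with centring, 9 with 32 added and 3 with probe set means. Small differences changed sign, 24 of them with quantile normalisation, 9 with centring and 2 with probe set means, each of at most 0.14. In hypoxia DMSO against normoxia DMSO these were CCND2 at -0.01 and CDK2 at 0.02 with quantile normalisation, and POLD1 at -0.02 with centring. No paired analysis was possible because each condition has 1 array. For the dim members CCND2 and DBF4 the signal limits the precision.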
